A study of Mus musculus with 4 samples.

Results

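Genes of the adipocyte lineage were measured in dermal fibroblasts of newborn mice that lacked Adam9 or were wild type. The 9 genes are the adipogenic transcription factors Pparg, Cebpa, Cebpb and Cebpd, the lipid handling genes Lpl, Fabp4, Cd36 and Plin2, and the adipocyte hormone gene Adipoq. Members were all array probe sets annotated to exactly 1 of these genes, which gave 17 probe sets for 9 genes out of 18193 named genes. The knockout cells were adam9 -/- (2 isolations) and the control cells adam9 +/+ (2 isolations), all from skin at postnatal day 1. All were untreated primary cultures grown for 48 h, with no differentiation cocktail named in the labels, and each isolation was measured on 1 array. The labels do not give strain, sex, the number of animals per isolation or how the allele was made. P-values therefore measure the spread between isolations, whose source is not stated.

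Preadipocytes become fat cells through a relay of transcription factors. C/EBP beta and C/EBP delta act early, and they turn on C/EBP alpha and the nuclear receptor PPAR gamma, which then hold each other on and drive the genes of fat storage. Lipoprotein lipase frees fatty acids outside the cell, CD36 helps to take them up, FABP4 carries them in the cytoplasm, perilipin 2 coats lipid droplets and adiponectin is secreted by mature fat cells. In skin, fibroblasts of the lower dermis share a progenitor with dermal fat cells.

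The start regions of 4 members are shown because their genes gave the 4 kinds of pattern described below. Cebpa stood higher in both knockout arrays, Plin2 stood lower, Cd36 was high in 1 wild-type array alone and Adipoq was low in all arrays. Each run is the 250 bases before the start, 5′ to 3′ on the gene's strand, from RefSeq on GRCm38.p6. Capitals mark matches, on either strand, to TTGCG (part of the binding site of C/EBP factors), AGGTCA (a half-site of nuclear receptors), CCAAT or TATAAA.
Cebpa, chr7:35119043-35119292, plus strand: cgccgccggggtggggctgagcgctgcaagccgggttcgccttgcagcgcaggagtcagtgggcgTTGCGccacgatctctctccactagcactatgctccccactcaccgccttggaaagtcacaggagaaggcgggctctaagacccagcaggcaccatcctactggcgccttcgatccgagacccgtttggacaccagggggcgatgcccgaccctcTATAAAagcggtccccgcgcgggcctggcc
Plin2, chr4:86670060-86670309, minus strand: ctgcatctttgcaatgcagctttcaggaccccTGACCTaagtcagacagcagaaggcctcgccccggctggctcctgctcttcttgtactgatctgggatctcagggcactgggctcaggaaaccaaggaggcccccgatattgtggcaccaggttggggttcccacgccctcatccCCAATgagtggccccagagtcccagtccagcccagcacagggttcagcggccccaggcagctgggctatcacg
Cd36, chr5:17835897-17836146, minus strand: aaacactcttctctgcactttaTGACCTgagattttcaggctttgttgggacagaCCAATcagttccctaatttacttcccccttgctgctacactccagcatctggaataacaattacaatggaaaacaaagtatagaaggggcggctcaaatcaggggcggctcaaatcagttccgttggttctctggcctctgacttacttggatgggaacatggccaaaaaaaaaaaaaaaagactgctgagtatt
Adipoq, chr16:23146286-23146535, plus strand: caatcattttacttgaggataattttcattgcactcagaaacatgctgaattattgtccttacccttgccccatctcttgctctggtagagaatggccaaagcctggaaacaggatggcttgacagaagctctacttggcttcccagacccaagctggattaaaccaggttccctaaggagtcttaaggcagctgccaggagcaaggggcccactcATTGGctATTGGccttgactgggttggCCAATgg
The Cebpa window holds TTGCG at 185 to 181 bases before the start and TATAAA at 30 to 25 bases before it. The Plin2 and Cd36 windows each hold 1 AGGTCA on the opposite strand, read as TGACCT, and 1 CCAAT. The Adipoq window holds 3 CCAAT matches, 2 of them on the opposite strand, read as ATTGG. Of 32851 windows of this length in the table, 14.5% hold TTGCG, 14.0% AGGTCA, 33.8% CCAAT and 12.4% TATAAA. The full direct repeat bound by PPAR and its partner RXR, AGGTCA repeated after 1 free base, occurs in 0.0335% of windows and in none of the 8 windows of the 6 members listed, Pparg with 3 windows and Cebpb included. AGGTCA is part of that repeat, and no other pair of these motifs overlapped in the 4 runs. A match describes letters only.

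Values are the deposited log2 values, where 1 unit is a doubling. The arrays had nearly equal medians (4.83 to 4.87). Genotypes were compared with limma on 23595 probe sets that name 1 gene and exceed a mean of 4.17 over the arrays (a filter at percentile 40 of the non-control probe sets). A probe set was called at a Benjamini-Hochberg adjusted p under 0.05, and 10 were, or 0.0424% of those tested. Adam9 was one of them, at 8.33 and 8.55 in the knockout isolations and 11.58 and 11.70 in the wild-type isolations (adjusted p = 0.0275). Whether its probe set lies in the deleted part is not given, so it may not check the labels. The arrays also differed by genotype in the X-inactivation RNA Xist, at 10.38 and 10.40 in the knockout and 4.29 and 4.32 in the wild type, and the Y-linked Eif2s3y, Kdm5d and Uty were high with the wild-type genotype (7.06 to 9.31) and low with the knockout (2.26 to 2.78). These genes were among those called. A difference by sex, in genes of any chromosome, cannot be told apart from one by genotype in any comparison below. The 12 dermal fibroblast markers were present in all arrays, with medians of 11.54 to 12.38. With 2 arrays against 2, an exact permutation test of a single value cannot go below a two-sided p of 0.333.

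None of the 11 tested member probe sets, from 7 genes, was called (0 of 11, against 0.0424% of all probe sets, 0.0127% higher and 0.0297% lower in the knockout; smallest adjusted p = 0.200). At an unadjusted limma p under 0.05 there were 6 member probe sets, 5 of them higher in the knockout (Cebpa, both of Cebpd, both of Lpl) and 1 lower (Plin2). Of all tested probe sets, 5.61% were higher and 5.46% lower at that level. Of all tested probe sets, 11.1% passed it in either direction. The genotypes did not overlap for 10 of the 11 tested, against 44.5% of all tested probe sets. They were 9 on the higher side, against 21.8%, and 1 on the lower side, against 22.8%. With a difference of at least 2-fold as well, 3 stood higher (Cebpa and both of Lpl), against 2.27% of all tested, and 0 lower, against 1.5%. The median difference (knockout minus wild type) of the 11 was 0.59, and that of all tested probe sets was -0.01. Probe sets of 1 gene share a transcript, so these counts cover 7 genes and not 11 independent measurements. The other 6 probe sets, 2 of Fabp4, 3 of Cd36 and the 1 of Adipoq, lay below the filter and were not tested. With these 6 included, the median difference was 0.25.

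**Figure D1:**
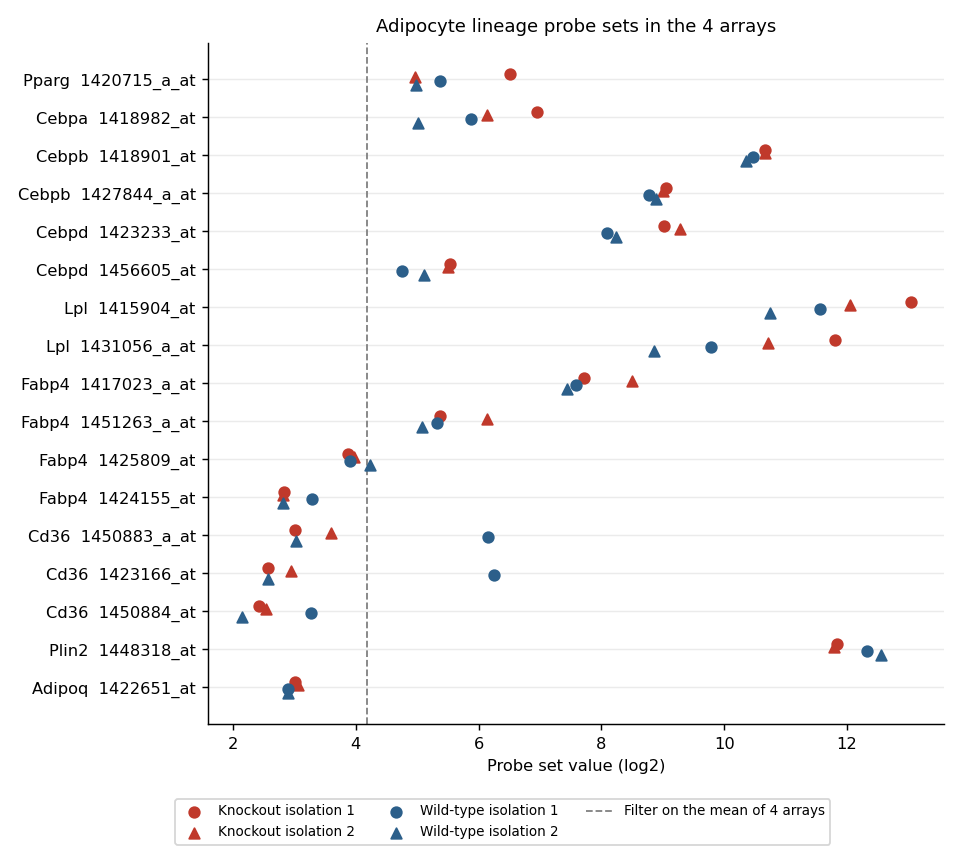
Log2 value of each of the 17 member probe sets (rows) in the 4 arrays (points), with knockout in red and wild type in blue. Both Lpl rows show all 4 arrays apart, the 2 upper Cd36 rows have 1 wild-type array near 6 with the rest at 3.59 or lower, and the Plin2 row has the wild-type points on the right.

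The early factor Cebpd stood higher in both knockout arrays. Probe set 1423233_at was at 9.01 and 9.28 in knockout isolations 1 and 2 and at 8.09 and 8.24 in wild-type isolations 1 and 2. The lowest knockout value lay 0.77 above the highest wild-type value. Mean levels were 9.15 ± 0.189 and 8.16 ± 0.110 (SD, n = 2 each). The difference was 0.98, or 1.98-fold (SE 0.162, 95% interval 0.55 to 1.41, limma adjusted p = 0.200). This was the smallest adjusted p of the members, and it did not pass. The second probe set, 1456605_at, had values of 5.54 and 5.50 in the knockout and 4.75 and 5.10 in the wild type. It differed by 0.59 (SE 0.173, 95% interval 0.14 to 1.05, limma adjusted p = 0.373), so both Cebpd probe sets lay apart in the same direction.

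Cebpb, the other early factor, differed little. Probe set 1418901_at was at 10.66 and 10.67 in the knockout pair and at 10.47 and 10.35 in the wild-type pair. Probe set 1427844_a_at was at 9.05 and 8.997 in the knockout and at 8.78 and 8.88 in the wild type. The knockout values were the higher ones without overlap in each case, by gaps of 0.19 and 0.11. The differences were 0.25 (95% interval -0.09 to 0.60) and 0.19 (95% interval -0.16 to 0.54), with limma adjusted p of 0.542 and 0.626. Both intervals end below the 0.98 of Cebpd 1423233_at, and the difference between these genes was not tested.

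Cebpa, which sustains the fat cell programme with PPAR gamma, had 1 probe set, 1418982_at. It was at 6.94 and 6.13 in knockout isolations 1 and 2 and at 5.87 and 5.004 in wild-type isolations 1 and 2. Isolation 1 stood above isolation 2 in each genotype, and the genotypes were separated by 0.26. The means of 6.54 ± 0.575 and 5.44 ± 0.611 (SD, n = 2 each) were each spread widely. They differed by 1.10, or 2.15-fold (SE 0.411, 95% interval 0.02 to 2.19, limma adjusted p = 0.445). Without wild-type isolation 2 the difference was 0.67, and without knockout isolation 1 it was 0.69.

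Pparg, the receptor at the centre of the programme, showed no separation. Its probe set 1420715_a_at was at 6.51 and 4.96 in the knockout pair and at 5.36 and 4.98 in the wild-type pair. Knockout isolation 1 was the highest of the arrays and knockout isolation 2 the lowest. The difference of 0.56 had an SE of 0.541 (95% interval -0.86 to 1.99, limma adjusted p = 0.721), and without knockout isolation 1 it was -0.21. The interval spans changes of more than 1 log2 unit upward, so it does not show that Pparg was alike in the genotypes.

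Lpl, the lipase that releases fatty acids from circulating triglyceride, had the largest differences among the tested members. Probe set 1415904_at was at 13.04 and 12.04 in knockout isolations 1 and 2 and at 11.55 and 10.75 in wild-type isolations 1 and 2. Probe set 1431056_a_at was at 11.80 and 10.72 in the knockout and at 9.78 and 8.85 in the wild type. In both, the arrays fell in the same order, with isolation 1 above isolation 2 in each genotype and every knockout value above every wild-type value. For 1431056_a_at the genotype means were 11.26 ± 0.763 and 9.32 ± 0.660 (SD, n = 2 each). This is a difference of 1.94, or 3.84-fold (SE 0.487, 95% interval 0.66 to 3.23, limma adjusted p = 0.325). For 1415904_at the genotype means were 12.54 ± 0.708 and 11.15 ± 0.566 (SD, n = 2 each), with a difference below that of the other probe set. It was 1.39, or 2.62-fold (SE 0.441, 95% interval 0.22 to 2.55, limma adjusted p = 0.399). Neither passed, and the second was 0.89 without knockout isolation 1.

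Lpl lies on chromosome 8, as Adam9 does, with 198 protein-coding genes listed between them. The 232 tested probe sets of those genes, Lpl itself not among them, had a median difference of -0.08. Of these 232, 93 were positive, a smaller share than the 49.1% of all tested probe sets, and 0 were called, against 0.0424%. The genes whose 4 centred values lay closest to those of Lpl 1415904_at, among 13270 genes compared, were Sp100, at a root mean square distance of 0.122 log2 units, 6330403K07Rik at 0.148 and the member Cebpa at 0.160. For Lpl 1431056_a_at they were the estrogen-forming enzyme gene Hsd17b1 at 0.182, Olfml1 at 0.204 and the adhesion receptor gene Adgrd1 at 0.212. These distances over 4 arrays are a description.

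Fabp4, the cytoplasmic carrier of fatty acids in fat cells, had 4 probe sets. Probe set 1417023_a_at was at 7.72 and 8.50 in the knockout pair and at 7.58 and 7.43 in the wild-type pair. Probe set 1451263_a_at was at 5.38 and 6.14 in the knockout and at 5.31 and 5.08 in the wild type. Knockout isolation 2 stood apart in both, and knockout isolation 1 was above wild-type isolation 1 by only 0.14 and 0.06. The differences were 0.60 (SE 0.292, 95% interval -0.17 to 1.37, limma adjusted p = 0.523) and 0.56 (SE 0.290, 95% interval -0.21 to 1.32, limma adjusted p = 0.545). Without knockout isolation 2 they were 0.21 and 0.18. The dim probe sets went the other way by small amounts. Probe set 1425809_at was at 3.87 and 3.97 in the knockout and 3.90 and 4.23 in the wild type, and 1424155_at at 2.83 and 2.82 in the knockout and 3.28 and 2.81 in the wild type. Each of these overlapped between genotypes, and averaging the 4 probe sets of the gene gave a difference of 0.20.

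Plin2, which coats lipid droplets in many cell types, was the 1 tested member that stood lower in the knockout. Its probe set 1448318_at was at 11.84 and 11.78 in the knockout pair and at 12.32 and 12.55 in the wild-type pair. Both knockout values lay below both wild-type values. The means of 11.81 ± 0.042 and 12.44 ± 0.160 (SD, n = 2 each) were closely spaced within genotypes. The difference was -0.62, a 1.54-fold lower value (SE 0.148, 95% interval -1.01 to -0.24, limma adjusted p = 0.310). It did not pass.

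**Figure D2:**
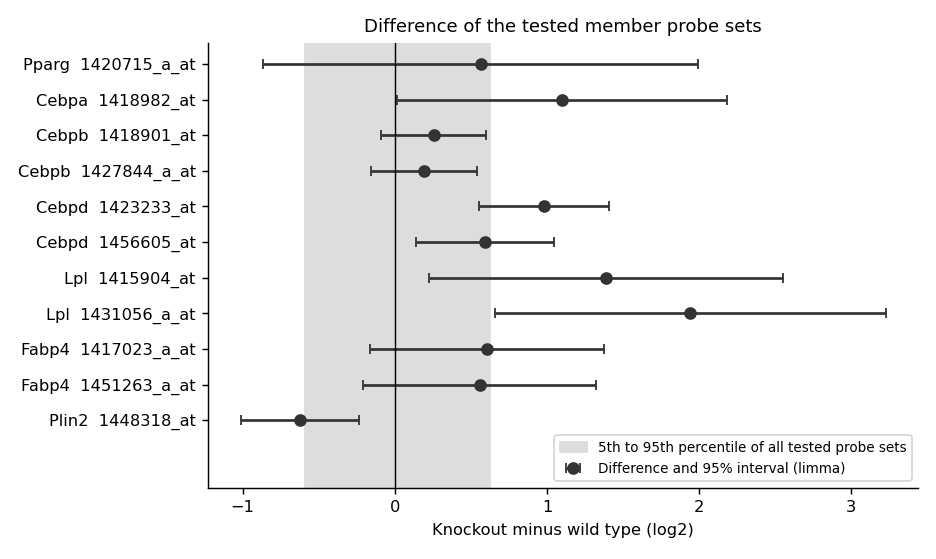
Difference between knockout and wild type (log2) of the 11 tested member probe sets, with 95% intervals of the limma fit, over the range that holds the middle 90% of all tested probe sets (grey, -0.59 to 0.63). Lpl, Cebpa and Cebpd 1423233_at lie to the right of the grey band and Plin2 just beyond its left edge.

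Cd36, the fatty acid uptake receptor that macrophages and capillary cells also carry, was high in 1 array. Probe set 1423166_at was at 6.25 in wild-type isolation 1, with 2.57 measured in wild-type isolation 2, 2.57 in knockout isolation 1 and 2.95 in knockout isolation 2. Probe set 1450883_a_at was at 6.15 in wild-type isolation 1 and at 3.03, 3.0004 and 3.59 in those other arrays. The third, 1450884_at, was at 3.27 there and at 2.14, 2.42 and 2.54 in the others. The genotypes overlapped in all of them, since wild-type isolation 2 lay within the knockout range, at its lower end or below it. The differences were -1.65, -1.30 and -0.23, and without wild-type isolation 1 they were 0.19, 0.26 and 0.34. None of the 3 was tested, because their means over the arrays lay below the filter.

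Leukocyte and macrophage markers were high in the same array. The 20 marker genes had a median of 8.40 (range 4.50 to 12.84) in wild-type isolation 1. The median was 4.47 (2.54 to 8.20) in wild-type isolation 2, 3.93 (2.52 to 7.87) in knockout isolation 1 and 4.26 (2.26 to 7.45) in knockout isolation 2. In wild-type isolation 1, 0 of the 20 lay below the filter level, and 7, 11 and 9 did in those other arrays. Of the defining genes, Ctss, a macrophage protease, was at 10.07 there and at 3.88 to 4.58 elsewhere, and the complement gene C1qb was at 9.46 and at 3.37 to 3.77 elsewhere. None of the 22 tested marker probe sets was called (limma; 1 at an unadjusted p under 0.05). Of these 22, which cover 15 genes, 0 were positive (median difference -2.09), against 49.1% of all tested probe sets. Without overlap, 13 were lower in the knockout, against 22.8% of all tested, and 0 were higher, against 21.8%. In those 13, wild-type isolation 2 also lay above both knockout arrays. The part of such cells in the Cd36 values was not tested. In cultures measured in bulk, fewer cells of a type and less RNA per cell cannot be told apart.

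The 3 genes closest to Cd36 1450883_a_at in centred values were all leukocyte genes, Ly86 (distance 0.168), the integrin gene Itgb2 (0.245) and the macrophage receptor gene Adgre1 (0.257). For 1423166_at they were Cd52 (0.225), Ly86 (0.266) and Ms4a6b (0.293). These Cd36 comparisons were chosen after the values were seen. The other tested members were also read without the array that had these markers. The difference was then 1.79 and 2.41 for the Lpl probe sets, 1.53 for Cebpa, 0.90 and 0.42 for those of Cebpd, and -0.74 for Plin2. It was 0.31 and 0.14 for the Cebpb probe sets, 0.68 and 0.67 for those of Fabp4, and 0.76 for Pparg. Where genotypes do not overlap, as in all of these but Pparg, leaving out 1 array cannot change the direction. The kept direction is therefore no test of the part of such cells. Endothelial markers, of another cell type with CD36 and FABP4, had medians of 4.25, 4.24, 4.13 and 4.13 in knockout isolations 1 and 2 and wild-type isolations 1 and 2. Of these 12 genes, 6 were tested with 9 probe sets, of which 7 were positive (median 0.24), against 49.1% of all tested probe sets. Without overlap, 6 were higher in the knockout, against 21.8% of all tested, and 2 were lower, against 22.8%. The 6 include every tested probe set of Egfl7, so they are not 6 independent genes. By limma 0 were called (0 at an unadjusted p under 0.05). The receptor gene Tek was at 6.06 and 6.37 in the knockout and 5.98 and 5.13 in the wild type (0.66). Egfl7 1421335_a_at was at 4.86 and 5.01 in the knockout and 4.48 and 4.70 in the wild type (0.34). The other Egfl7 probe sets differed by 0.14 to 0.27. The 2 that were lower without overlap were Kdr and Esam. Kdr was at 5.37 and 5.47 in the knockout and 5.64 and 5.69 in the wild type (-0.25), and Esam differed by -0.10. The defining junction genes Pecam1 and Cdh5 were below the filter level in all arrays. The part of endothelial cells in the Fabp4 values was not tested.

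Other marker lists also differed between arrays. Among 9 keratinocyte marker genes, Perp and Dsp stood lower in the knockout, and the keratins other than Krt14 and Trp63 did not share this. Krt14, below the filter, was at 3.53 and 3.89 in the knockout and 3.90 and 3.96 in the wild type. None of the 5 tested probe sets was called by limma, and the 3 at an unadjusted p under 0.05 were those of Perp and Dsp. Perp, a gene of epithelial junctions, was at 5.28 and 3.04 in the knockout and 8.10 and 7.90 in the wild type. The desmosome gene Dsp was at 3.06 and 3.55 in the knockout and 4.84 and 6.75 in the wild type. The differences of the other genes were -0.01 for Krt5, -0.22 for Krt14, -0.05 for Krt15, 0.17 for Krt1, 0.39 for Krt10, 0.23 for Trp63 and -0.05 for Cdh1. Of 12 dermal fibroblast markers, Lum and Pdgfra had the largest differences. The matrix gene Lum was at 10.13 in wild-type isolation 2 and at 12.38 to 12.81 in the rest. The receptor gene Pdgfra (1421917_at) was at 10.35 there and at 11.93 to 12.31 in the rest. Lum and every tested Pdgfra probe set were also higher in the knockout without overlap. Pdgfra 1421916_at was at 8.98 and 8.86 in the knockout and 8.29 and 7.19 in the wild type (1.18, limma unadjusted p = 0.031). Not all markers were lowest there, with Vim at 13.81 (13.59 to 13.79 in the rest), Thy1 at 12.33 (12.26 to 12.45) and Twist2 at 10.04 (10.02 to 10.45). The other markers were lowest there, some by little, as Col1a2 at 13.93 (14.08 to 14.09). The 22 tested probe sets of the list had a median difference of 0.18, with 18 positive, against 49.1% of all tested, and 0 called. Without overlap, 4 were higher in the knockout, against 21.8% of all tested, and 2 were lower, against 22.8%. Wild-type isolation 2 was also the lowest array for Lpl and Cebpa, whose differences without it were 0.99 and 1.48 for the Lpl probe sets and 0.67 for Cebpa. The part of these marker differences in the member values was not tested.

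**Figure D3:**
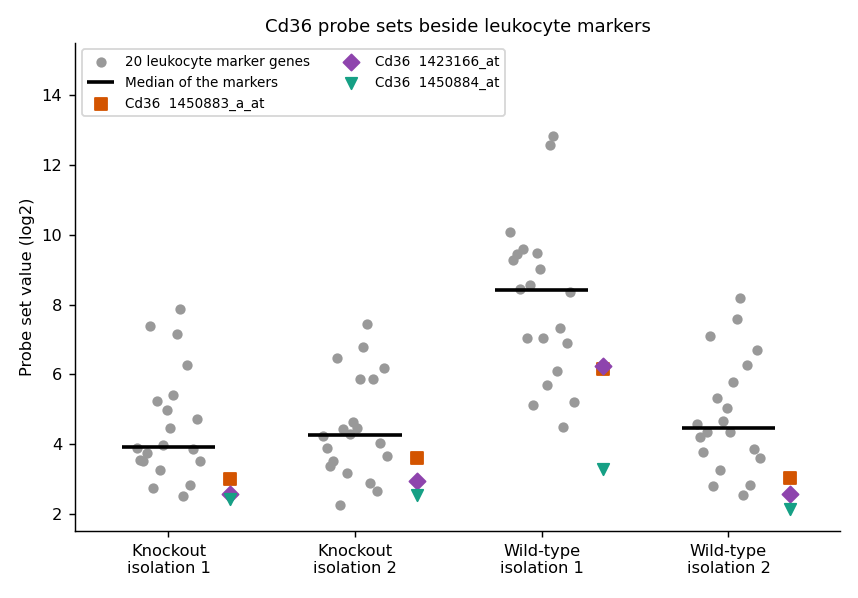
Log2 values of the 3 Cd36 probe sets (coloured) beside the 20 leukocyte marker genes (grey points, black bar for their median) in each of the 4 arrays (columns). Wild-type isolation 1 has the highest values of each Cd36 probe set and a marker median of 8.40, against 3.93 to 4.47 in the other arrays.

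Adipoq, the hormone gene of mature fat cells, was low in every array. Its probe set 1422651_at was at 3.01 and 3.06 in the knockout pair and at 2.90 and 2.90 in the wild-type pair. The knockout values were higher by 0.14 on average, without overlap, at a level below the filter, where no test was made. The 6 measured markers of mature adipocytes include Adipoq itself. Of the others, Lep, the leptin gene, was at 2.86 to 2.95 and the droplet gene Cidec at 2.36 to 2.85 across the 4 arrays, and Retn, Slc2a4 and Lipe exceeded the filter. The largest differences among the tested were 0.13 for Retn and 0.12 for Slc2a4 1415959_at, and 0 of the 4 tested probe sets were called by limma (0 at an unadjusted p under 0.05). No detection calls were used, so these low values have no stated background.

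The remaining genes of the pathway were read from 5 lists, in which Dlk1 was the 1 gene called. Dlk1 encodes a membrane protein of preadipocytes that restrains fat cell formation, and it belongs to the restraining and the progenitor list alike. Its probe set 1449939_s_at was at 9.05 and 9.14 in the knockout and at 6.20 and 5.99 in the wild type, and it rose by 2.999 (SE 0.147, limma adjusted p = 0.0284). The second Dlk1 probe set, 1442724_at, differed by 0.32 (limma adjusted p = 0.568), and 0 probe sets of the whole table were called with any 1 array left out. Among regulators that restrain adipogenesis, 49 probe sets of 21 genes were tested, with a median difference of 0.03, 28 positive, 1 called higher and 0 called lower. At an unadjusted limma p under 0.05, 5 were higher and 5 lower. Of all tested probe sets, 49.1% were positive, and 5.61% were higher and 5.46% lower at that unadjusted level. These shares are the background for the counts of each list.

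Regulators that promote adipogenesis had a median of 0.16 over 55 probe sets of 24 genes, 39 of them positive, with 0 called by limma and 4 at an unadjusted p under 0.05 (1 higher and 3 lower). The largest differences were those of Med1, a coactivator of PPAR gamma, and of the ligand gene Bmp2. Med1 1421907_at was at 7.57 and 7.75 in the knockout and 8.38 and 8.50 in the wild type (-0.78, SE 0.143, limma adjusted p = 0.234). Of the other tested Med1 probe sets, 1421906_at differed by -0.48 (limma adjusted p = 0.439), 1447450_at by -0.11 and 1448708_at by 0.10, so 3 of 4 were negative. Bmp2 was at 5.69 and 5.90 in the knockout and 6.84 and 6.19 in the wild type (-0.72, limma adjusted p = 0.432).

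PPAR gamma targets and mature adipocyte genes had a median of -0.02 over 49 probe sets of 29 genes, 21 of them positive. None was called by limma, and 5 were higher and 1 lower at an unadjusted p under 0.05. The largest differences were those of Fabp5, the relative of Fabp4 found in skin and in many other cells, and Pnpla2, the lipase that starts the breakdown of stored triglyceride. Fabp5 1416022_at was at 10.50 and 10.57 in the knockout and 9.70 and 9.66 in the wild type (0.85, SE 0.129, limma adjusted p = 0.180), and its other probe set, 1416021_a_at, differed by 0.71. Pnpla2 1428143_a_at was at 6.65 and 6.30 in the knockout and 6.88 and 7.54 in the wild type (-0.74, SE 0.278, limma adjusted p = 0.450). Its second probe set, 1428591_at, lay below the filter, overlapped between genotypes and differed by 0.26.

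Preadipocyte and stromal progenitor markers had a median of -0.03 over 34 probe sets of 18 genes, 17 positive and 17 negative, with Dlk1 as the 1 call. At an unadjusted limma p under 0.05, 3 of them were higher and 5 lower. Close relatives of the members, such as other PPAR, FABP and perilipin genes, had a median of 0.05 over 39 probe sets of 23 genes, 20 of them positive. By limma 0 were called and 11 had an unadjusted p under 0.05 (5 higher and 6 lower), against 11.1% of all tested probe sets. Fabp3, the heart and muscle carrier, was at 6.23 and 5.89 in the knockout and 7.85 and 8.58 in the wild type (-2.15, SE 0.294, limma adjusted p = 0.155), and its second probe set differed by -0.11. C1qtnf7, a secreted relative of adiponectin, was at 7.05 and 7.02 in the knockout and 6.03 and 4.21 in the wild type (1.91, SE 0.614, limma adjusted p = 0.405), and its second probe set differed by 1.01. Neither gene passed.

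**Figure D4:**
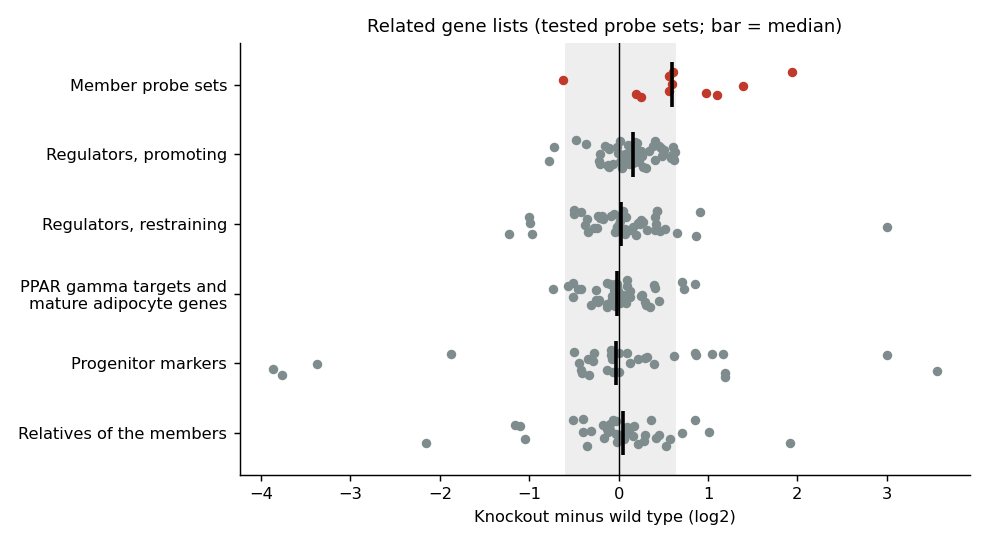
Difference between knockout and wild type (log2) of the tested member probe sets (red) and of the tested probe sets of 5 related lists (grey points), with each median as a bar and the middle 90% of all tested probe sets shaded. The member median is 0.59 and the list medians lie between -0.03 and 0.16, with Dlk1 as the point at 2.999 in 2 lists.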

How the data were processed

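Total RNA of 2 Adam9 knockout and 2 wild-type isolations was labelled with biotin and measured on 1 array each. For each probe set the authors deposited 1 log2-scale value per array, made with Affymetrix Expression Console per the submitters' processing notes. Neither its version, algorithm nor the log base is given in the labels, and the deposited values were taken as log2 from their range (1.70 to 14.37) and nearly equal distributions. Of 45101 probe sets, 64 were controls, and 34945 others named 1 gene in the platform annotation. Symbols were updated by Entrez identifier through a RefSeq table of GRCm38.p6, which named 34754 probe sets. Promoter windows came from RefSeq, with 6 of the 9 members listed. They read on the gene's strand, checked by TATAAA matches near the start (310 and 303 windows as given against 72 and 62 reversed, on the plus and minus strands).

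Probe sets above the filter were fitted singly by limma 3.58.1 under R 4.3.3 (its lmFit with eBayes, no block; 2 residual and 2.60 prior degrees of freedom). The procedure was tested on simulated data. Members and lists were chosen with earlier results of these data known. Of 210 list entries, 17 had no probe set naming them alone. Every member probe set is named. Of each related list, up to 4 called probe sets are named, or the 2 genes with the largest difference where none was called. Further genes of the marker lists were added with their values known. They were Pecam1, Cdh5, Kdr, Esam, Lep, Cidec, Lipe, Vim, Thy1, Twist2, Col1a2 and the keratinocyte genes beyond Perp and Dsp. The 3 genes nearest in centred values are named for tested members spanning over 2 log2 units. The labels do not say that equal isolation numbers share a litter or day, so they were not used as pairs. The number of arrays limits the precision.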

Additional observations from a re-analysis of the deposited data

How the results depend on the processing

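No member probe set was called in any of 15 alternative settings (smallest adjusted p in each, 0.160 to 0.722), and the median difference of the tested members ran from 0.528 to 0.695 without 1 array and from 0.254 to 0.793 in the other settings. The lowest of these medians, 0.254, came without the filter on low values, where all 17 member probe sets were included. Of the members tested with the filter, Pparg alone changed direction, to -0.21 without knockout isolation 1. Without 1 array at a time the Pparg difference ran from -0.21 to 1.34. Pparg was also the only tested member whose genotypes overlapped. Where they do not overlap, leaving out 1 array cannot change the direction, so the kept direction of the others adds nothing to that. The count of called probe sets over the whole table was 10. It was 6 with the stricter filter, 6 with the mean over the probe sets of a gene, 0 with the isolation number as a replicate block and 0 to 0 without any 1 array. With the block, 2605 probe sets had an unadjusted limma p under 0.05, against 2611 without it, and the members' smallest adjusted p was 0.195. Deviations from the group means correlated at 0.0829 between arrays of equal number. With 2 arrays per genotype both pairs give this same value by construction, so it is a single number and cannot settle whether equal numbers are pairs. Low values have no stated background, which limits Adipoq, Cd36 and the dim Fabp4 probe sets most.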

Other observations

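Among the 5 lists, 2 preadipocyte and stromal progenitor markers and 1 relative of the members are given here, chosen after their values were seen. Cd24a, a surface marker of early fat cell progenitors, had 3 probe sets, and 1448182_a_at was at 5.01 and 4.07 in the knockout pair and at 7.53 and 9.28 in the wild-type pair (difference -3.87, SE 0.667, limma adjusted p = 0.213). Sfrp2, which encodes a secreted Wnt-binding protein, was at 7.82 and 7.003 in the knockout pair and at 4.70 and 2.99 in the wild-type pair (difference 3.56, SE 0.635, limma adjusted p = 0.226). Neither passed, and the wild-type pair was widely spread in both. Cdh13, a receptor for adiponectin, had 3 probe sets, and 1423551_at was at 7.66 and 7.33 in the knockout pair and at 8.71 and 8.49 in the wild-type pair (difference -1.11, SE 0.181, limma adjusted p = 0.200), which did not pass.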
